A study of Drosophila melanogaster with 12 samples.

Results

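Mitochondria carry their own ribosome, the mitoribosome, which translates the few membrane proteins of the respiratory chain and the ATP synthase that the mitochondrial genome encodes. Its RNAs come from that genome, but its proteins are encoded in the nucleus, made by cytosolic ribosomes and imported. In Drosophila these proteins are named mRpL (large subunit) and mRpS (small subunit), followed by a family number. Families with low numbers are shared with bacterial ribosomes, and most families with high numbers are known from mitochondria alone. Fly mutants of some of these proteins grow poorly, develop slowly or have seizures, and in the male tract mitochondria are rebuilt during sperm development, when they fuse and elongate along the tail.

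The members were the genes whose FlyBase symbol starts with mRpL or mRpS and goes on with a number. Of 73 such symbols, 71 had an identifier among the 17559 genes of the count tables. The genes mRpS5 and mRpS34 had none under their present identifiers and were not analysed here. The 71 comprised 47 large and 24 small subunit genes, spread over chromosome arms 2L (12), 2R (12), 3L (15) and 3R (21) and the X chromosome (11). With large subunit numbers up to 36 and small subunit numbers up to 21 taken as the families shared with bacteria, 41 genes were low-numbered (28 large, 13 small) and 30 high-numbered (19 large, 11 small). The names were taken at face value. In structures of the human mitoribosome, the counterparts of mRpS24 and mRpL47 belong to families shared with bacteria, and those of mRpS18A and mRpS30 lie in the large subunit.

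Counts came from the reproductive tracts of virgin Drosophila melanogaster males, dissected with accessory glands, testes and ejaculatory duct. All 6 populations were founded from the IV population and had evolved for 168 generations. In the 3 monogamous populations each male was paired with 1 virgin female, in the 3 polygamous populations 5 males were kept with 5 females, and females of both regimes then laid eggs in groups of equal size. Each population gave 1 pool of 30 tracts at 48 h and 1 at 96 h of age, so each group of regime and age held 3 libraries, 12 in all. A population is the replicate of its regime, and spread within a group is spread between evolving lines. No other genotype, allele or agent is given in the labels, and a pooled tract is a mixture of tissues, in which fewer cells of a type and less RNA per cell cannot be told apart.

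Gene counts summed to 31367000 to 40581000 per library. Of the 71 members, 70 passed the filter on low counts, with 64 to 1708 counts per member and library. The summed level of 18 spermatid markers was 29999.9 to 43012 CPM (a gene's count relative to the library's normalised total), and that of 9 seminal fluid genes 7749 to 28059 CPM, so testis and accessory gland RNA were both present in each library. The 48 h library of monogamous population 1 held the highest spermatid sum and the lowest seminal fluid sum. Over all genes, its score on principal component 1 (26.8% of the variance) was -68.2, and the other 11 scored -26.4 to 19.9.

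The mitoribosomal genes were expressed at a moderate level, well under that of cytosolic ribosomal proteins. Per kilobase of exon, the mean over 12 libraries was lowest for mRpL54 (4.72 CPM per kb) and highest for mRpS17 (47.0 CPM per kb), a 9.96-fold range, with a median of 11.3. The median over 11416 protein-coding genes tested was 8.71 CPM per kb, that of 87 nuclear genes of oxidative phosphorylation 66.2, and that of 87 cytosolic ribosomal proteins 220. Lengths are of all annotated exons merged, so they overstate the transcript where isoforms differ.

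The small subunit genes had the higher levels, with a median of 15.7 CPM per kb over 24 genes, against 9.70 over the 46 large subunit genes tested. Low-numbered and high-numbered families lay closer together, at 11.5 (41 genes) and 10.1 CPM per kb (29 genes). These medians describe the lists and were not tested.

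Highest of all members was mRpS17 (FBgn0034986, 2R, 24173665 to 24174441, BDGP6), whose bacterial counterpart binds small subunit rRNA early in assembly, at 47.0 ± 5.22 CPM per kb (SD, n = 12 libraries). It was followed by mRpL24, whose bacterial counterpart sits near the exit of the nascent chain tunnel, at 42.8 ± 3.71 CPM per kb. The other members of the top 5 were mRpL51 at 38.6 ± 3.41, mRpS21 at 33.8 ± 5.49 and mRpS18A at 31.7 ± 3.12 CPM per kb. Between neighbours in this order, the means of mRpL24 and mRpL51 differed by more than the SD of either, and those of the other neighbours by less than the larger of their SDs. Of the mRpS21 exons, 48% lie opposite CG8870, so its count could lack reads of the shared stretch if strand was not used.

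**Figure D1:**
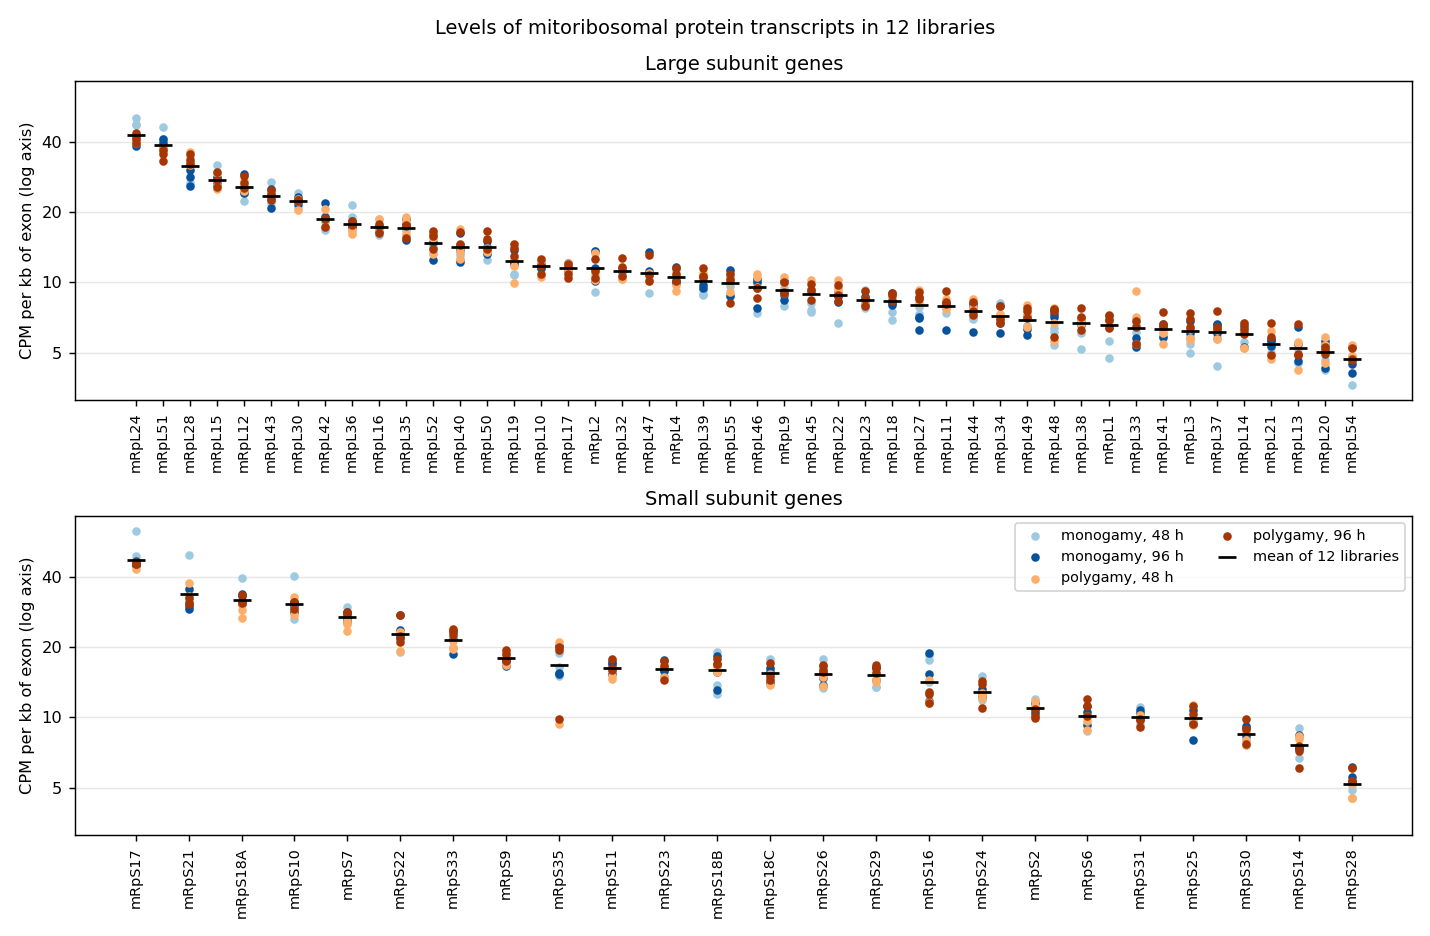
Level of each of the 70 tested mitoribosomal protein genes in CPM per kilobase of exon (log axis), large subunit above and small subunit below, each ordered by its mean. Points are the 12 libraries coloured by regime and age and bars are means over them. Most genes kept their 12 points close together, while mRpS35 had 2 low points from polygamous population 3.

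At the low end stood mRpL54 at 4.72 ± 0.494 CPM per kb, mRpL20 at 5.04 ± 0.524, mRpS28 at 5.21 ± 0.551, mRpL13 at 5.23 ± 0.736 and mRpL21 at 5.47 ± 0.580. Bacterial L20 and L13 bind large subunit rRNA early in its assembly, while mRpL54 and mRpS28 are high-numbered. These 5 lay within 1 SD of their neighbours. For mRpL13, 35.2% of the exon sequence is shared on the same strand with CG10602, a gene at 103 to 114 CPM. Reads within the shared stretch would not have been assigned to either, as reads ambiguous between genes were set aside. This holds if the annotation used for counting had the same overlap.

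No count of mRpL53 was recorded in any library, where 3 counts would be worth 0.0739 to 0.0956 CPM. All of its exon sequence is also exon of CG33155 on the same strand, itself at 0 to 0.0888 CPM, and 2.82% to 3.26% of reads per library were set aside as ambiguous between genes. The count of 0 therefore says nothing on whether mRpL53 was expressed. Among all 71 members, 29 share no exon sequence with another gene, 3 share some on the same strand (mRpL13, mRpL53 and mRpS14) and 41 on the opposite strand, 6 of these over more than 20% of their length (mRpL17, mRpL48, mRpS9, mRpS14, mRpS21 and mRpS24).

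The small subunit protein S18 is present as 3 paralogues in animals, and all 3 genes were expressed. Level was highest for mRpS18A at 31.7 ± 3.12 CPM per kb, while mRpS18B at 16.0 ± 2.02 and mRpS18C at 15.4 ± 1.20 differed by less than their SD (n = 12 libraries). Across libraries mRpS18A stood at 15.4 to 22.9 CPM, mRpS18B at 10.9 to 16.5 and mRpS18C at 7.25 to 9.33.

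Of the panel of well-studied members, mRpL12 (25.6 ± 1.93 CPM per kb) encodes the stalk protein that recruits translation factors, and mRpS29 (15.2 ± 1.14) the GTP-binding protein called DAP3 in humans. The small subunit platform protein mRpS6 was at 10.2 ± 0.969 CPM per kb. Human MRPL45 holds the ribosome at the inner membrane, and the fly gene mRpL45 was at 8.91 ± 0.840. The gene mRpL3, whose bacterial counterpart reaches towards the peptidyl transferase centre, was at 6.17 ± 0.687 CPM per kb.

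A pair of mitoribosomal genes carries other names and was not counted among the members. The S12 gene technical knockout (tko), known for the bang-sensitive seizures of its mutant, was at 5.70 to 6.54 CPM, or 3.89 CPM per kb on average, which is below every tested member. The S15 gene bonsai was at 15.1 to 18.6 CPM, or 16.8 CPM per kb. Neither passed any comparison of age or regime, with log2 changes of -0.05 to 0.11 for bonsai and -0.00026 to 0.03 for tko.

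Levels were even across the 12 libraries. The coefficient of variation of a member was 4.31% to 23.4%, with a median of 9.01%, and for 59 of 70 members (84.3%) the highest library was less than 1.5 times the lowest. The same held for 75 of 87 cytosolic ribosomal proteins (86.2%) and for 2637 of 6311 tested genes (41.8%) in the members' range of 2.23 to 37.4 CPM. These shares are descriptions. Members with the widest span were mRpS35 (2.24 times), mRpL33 (1.73), mRpL37 (1.72) and mRpS21 (1.70).

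Summed over the members, expression was 817 to 912 CPM per library, and the 4 group means lay close together. The sum was 852 ± 37.8 CPM in monogamous males at 48 h, 852 ± 17.1 at 96 h, 845 ± 21.7 in polygamous males at 48 h and 869 ± 42.2 at 96 h (SD, n = 3). The groups overlapped. Cytosolic ribosomal proteins summed to 15077 ± 357, 17101 ± 1404, 17300 ± 719 and 17442 ± 456 CPM in the same order, and the monogamous 48 h libraries, at 14668 to 15325 CPM, held the 3 lowest sums.

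Per 100 CPM of cytosolic ribosomal protein transcripts, mitoribosomal transcripts amounted to 5.82, 5.78 and 5.36 CPM in monogamous populations 1 to 3 at 48 h. At 96 h the same populations had 4.72, 5.62 and 4.70. Polygamous populations had 4.66, 5.21 and 4.81 at 48 h and 4.92, 5.39 and 4.66 at 96 h. In monogamous populations the ratio was lower at 96 h in 3 of 3, and in polygamous populations it was higher in 2 of 3. At 96 h the regimes overlapped.

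**Figure D2:**
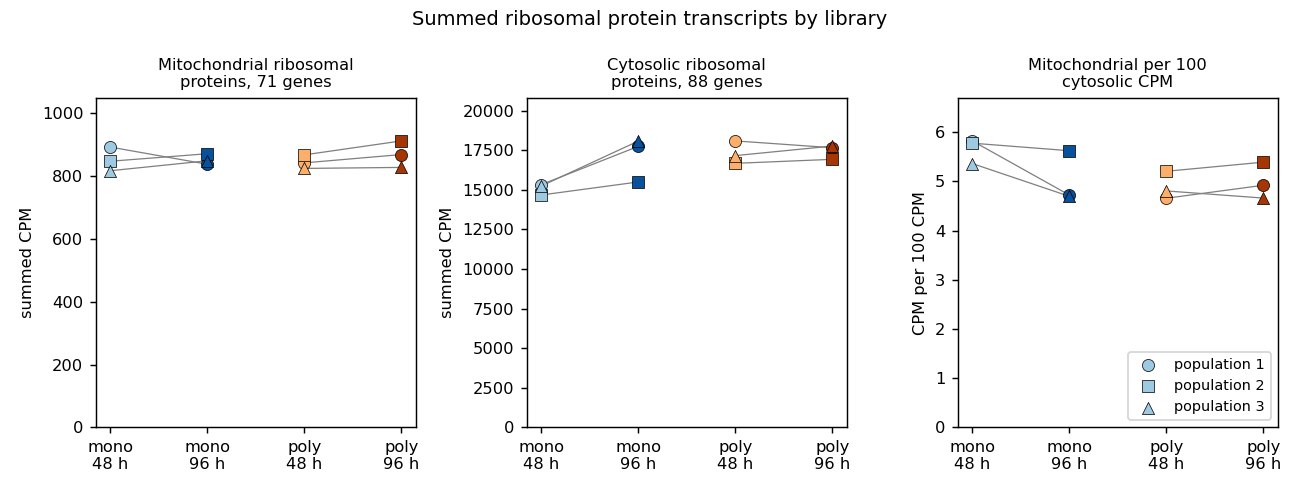
Summed CPM of 71 mitoribosomal (left) and 88 cytosolic ribosomal protein genes (middle), and the first per 100 CPM of the second (right), in each library, with lines joining the 48 and 96 h libraries of a population. Mitoribosomal sums stayed between 817 and 912 CPM, while the 3 monogamous libraries at 48 h had the lowest cytosolic sums and ratios of 5.36 to 5.82.

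The 48 h library of monogamous population 1 was the most uneven in these genes. It was the highest of 12 for 17 members and the lowest for 15. The shares over all genes were not computed, and this library also stood apart over all genes on principal component 1. Of the 17, 10 were small subunit genes and 13 low-numbered, with a median level of 23.5 CPM per kb. Of the 15, 14 were large subunit genes, with a median of 8.44 CPM per kb.

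Relative to the median of the other 11 libraries, that library was at 1.53 times for mRpS21, 1.38 for mRpS17, 1.34 for mRpS10 and 1.27 for mRpS18A. It was at 0.688 times for mRpL1, whose bacterial counterpart forms a mobile stalk, at 0.696 for mRpL37, at 0.744 for mRpL22 and at 0.744 for mRpL46. Its small subunit sum was 395 CPM, against 335 to 381 in the others, and its large subunit sum 497 CPM, within their range of 480 to 531. This was the library whose 18 spermatid markers summed to 43012 CPM against 29999.9 to 34957 elsewhere, 9 seminal fluid genes to 7749 against 14555 to 28059, 6 fat body genes to 217 against 42.5 to 98.4 and 8 haemocyte and basement membrane genes to 458 against 138 to 295. Their part in the mitoribosomal values was not tested. The 96 h library of polygamous population 2 was the highest for 18 members and the lowest for 0, again without shares over all genes.

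**Figure D3:**
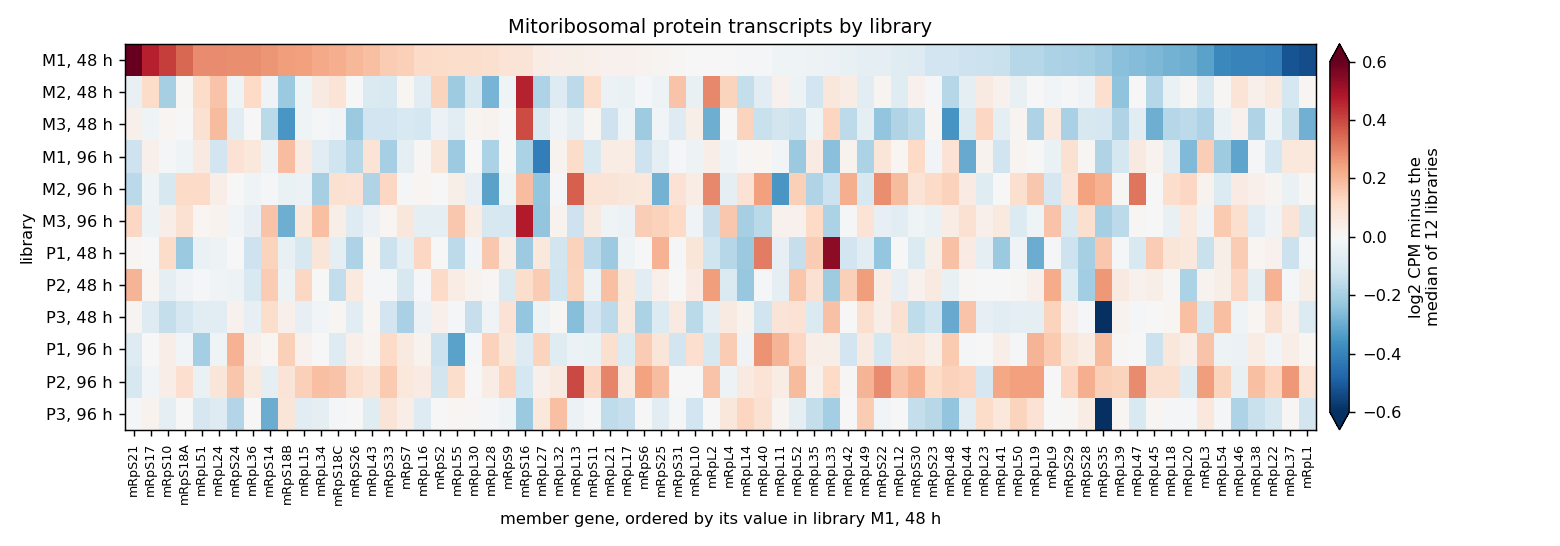
Log2 CPM of each tested member in each library minus its median over 12 libraries (colour), with libraries in rows (M monogamous, P polygamous) and members ordered by their value in the 48 h library of monogamous population 1. That library ran from mRpS21 at the high end to mRpL1 at the low end, and mRpS35 was low in both libraries of polygamous population 3.

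No mitoribosomal gene passed the test between 48 and 96 h of age. In monogamous males 0 of 70 members passed an adjusted p of 0.05 (edgeR quasi-likelihood test, Benjamini-Hochberg over 13156 genes), where 0.486% of all genes did. In polygamous males it was 0 of 70, where 0.0608% of all genes passed, and averaged over regimes 0 of 70, where 1.57% did. At an unadjusted p under 0.05 (edgeR) there were 5, 2 and 5 members, or 7.14%, 2.86% and 7.14% of the 70, where 14.7%, 7.43% and 17% of all genes were. DESeq2 called 1, 0 and 0 members, and 2.57%, 0.923% and 4.41% of the genes to which it gave an adjusted p.

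The intervals bound what the depth and the spread left room for. Averaged over regimes, the 95% interval of each of the 70 members lay within a 1.5-fold change either way, the widest reaching 1.43-fold for mRpL33. Within a regime all 70 lay within 2-fold, the widest reaching 1.66-fold in either regime, for mRpS35. This fit does not pair the ages of a population, so steady differences between populations, as in mRpS35, widen these intervals. The median standard error of a log2 age change was 0.11 within a regime and 0.08 averaged.

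The median log2 change of the members with age was 0.03 in monogamous males, 0.04 in polygamous males and 0.02 averaged, beside 0.01, 0.01 and 0.01 over all genes tested. Estimates were above 0 for 40, 49 and 43 of the 70 (57.1%, 70% and 61.4%), where 52.6%, 51.8% and 52.4% of all genes were. For cytosolic ribosomal proteins the medians were 0.16, 0.01 and 0.09, with 79, 51 and 76 of 87 above 0. Of those, 2 rose in monogamous males (RpL24-like and sta) and 4 averaged over regimes (RpL24-like, sta, RpL5 and RpS2). The 4 rose by 0.23 to 0.36 on the log2 scale in the average (edgeR adjusted p 0.00545 to 0.0424). The list follows gene symbols, so it holds RpL24-like and other genes named -like, whose place in the ribosome was not checked. No test set the lists against each other.

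**Figure D4:**
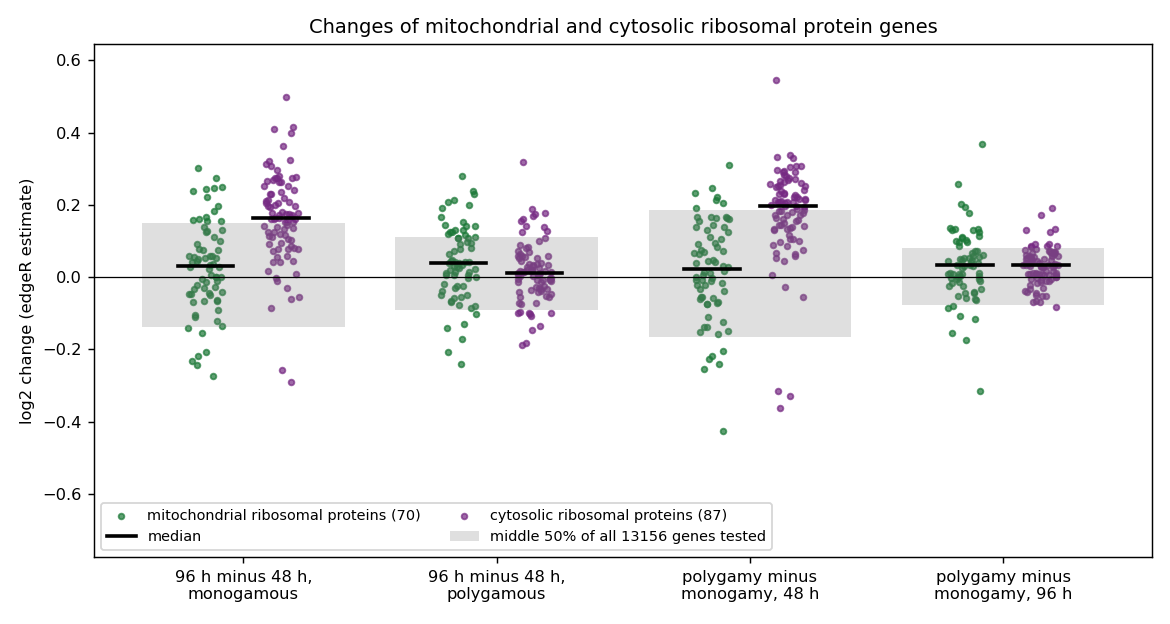
Log2 change (edgeR estimate) of each of 70 mitoribosomal and 87 cytosolic ribosomal protein genes in 4 comparisons, with bars for the median of each list and grey boxes for the middle 50% of 13156 genes. The mitoribosomal median stayed at 0.02 to 0.04, and the cytosolic median stood at 0.16 with age in monogamous males and at 0.20 between regimes at 48 h. Both of the latter comparisons use the same monogamous libraries at 48 h.

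The largest age estimate averaged over regimes was that of mRpL3. It was at 6.17, 7.22 and 6.76 CPM in monogamous populations 1 to 3 at 48 h and at 8.52, 7.82 and 7.58 at 96 h. In polygamous populations it went from 7.03, 7.82 and 7.21 to 8.68, 9.15 and 8.04 CPM. It was higher at 96 h in 6 of 6 populations, though the ages overlapped across regimes, and its log2 change of 0.24 ± 0.07 (SE) did not pass (edgeR adjusted p 0.124).

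The high-numbered small subunit gene mRpS28 was the only member whose 6 libraries at 96 h all lay above its 6 at 48 h, where 1.65% of all genes showed that order and 1.36% the opposite. It was at 3.13, 3.55, 3.37, 3.13, 3.11 and 3.58 CPM at 48 h (monogamous, then polygamous populations 1 to 3) and at 3.62, 4.25, 3.85, 3.71, 4.18 and 3.71 CPM at 96 h. The gap between the ages was small, from 3.58 to 3.62 CPM. Its log2 change was 0.23 ± 0.08 (edgeR adjusted p 0.209).

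Of the other members, mRpL19, mRpL21 and mRpS30 were also higher at 96 h in 6 of 6 populations, and mRpS2 was lower in 6 of 6. The remaining 64 went different ways in different populations. The share of all genes with a uniform direction in 6 of 6 populations was not computed, so these counts are descriptions. For mRpL19, whose bacterial counterpart lies at the interface of the subunits, CPM went from 11.2, 12.7 and 11.2 to 12.7, 14.2 and 12.5 in monogamous populations and from 10.3, 13.0 and 12.2 to 14.59, 15.04 and 13.47 in polygamous ones. Its change in polygamous males was 0.28 ± 0.10 (edgeR adjusted p 0.511), the largest there.

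Within monogamous males the 96 h libraries lay above the 48 h ones without overlap for 8 members and below them for 3, where 9.22% and 7.72% of all genes did. The largest of these were mRpL48 (0.30 ± 0.15), mRpL37 (0.27 ± 0.12) and mRpL45 (0.25 ± 0.08), each with an edgeR adjusted p of 0.240 to 0.363. In polygamous males it was 9 above and 4 below, where 11.8% and 12.1% of all genes did, led by mRpL19, mRpS28 (0.24 ± 0.12) and mRpS14 (-0.24 ± 0.13). The exons of mRpS14 lie opposite Naa15-16 over 32.0% of their length. Among cytosolic ribosomal proteins the counts were 32 above and 1 below in monogamous males and 10 and 9 in polygamous males. The members' shares above (11.4% and 12.9%) were near those of all genes, and their shares below (4.29% and 5.71%) were under them.

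Calls of single members with age appeared under particular settings. With the population as replicate block the count was still 0 of 70 in monogamous males (1.5% of all genes were called), in polygamous males (0.319%) and averaged over regimes (3.38%). With the block and without monogamous population 1, 5 members rose averaged over regimes, where 10.9% of all genes rose: mRpL19 (0.22, adjusted p 0.0148), mRpS22 (0.17, 0.0180), mRpS33 (0.19, 0.0215), mRpL3 (0.18, 0.0437) and mRpS6 (0.22, 0.0464), all from edgeR. In that fit mRpL19 also rose in polygamous males (0.28, edgeR adjusted p 0.0195), where 6.69% of all genes rose.

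Between mating regimes no mitoribosomal gene passed the test. At 48 h 0 of 70 members passed (edgeR; 0% of all genes did), at 96 h 0 of 70 (0%), and over population sums, which set 3 populations against 3, 0 of 70 (0% of 13512 genes). At an unadjusted p under 0.05 there were 7, 3 and 4 members by edgeR (10%, 4.29% and 5.71%), where 17.1%, 3.34% and 9.51% of all genes were. DESeq2 called 1 member at 48 h, where it gave 63 members an adjusted p, and 0 in the others, and 1.45%, 0.15% and 0.479% of the genes to which it gave an adjusted p. The widest 95% bounds were 1.74-fold at 48 h (mRpS16), 1.69-fold at 96 h and 1.68-fold over sums (both mRpS35). Median log2 differences, polygamous minus monogamous, were 0.02, 0.03 and 0.03, beside -0.0016, 0.0035 and 0.0074 over all genes. The cytosolic ribosomal proteins had medians of 0.20, 0.03 and 0.11, and none passed (edgeR). Above 0 were 82, 66 and 82 of 87, where 49.8%, 51.3% and 51.9% of all genes were. At an unadjusted p under 0.05 (edgeR) there were 58, 0 and 29 of them.

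At 48 h, the polygamous libraries lay above the monogamous ones without overlap for 6 members and below them for 5, where 11.9% and 10.4% of all genes did. Of the cytosolic ribosomal proteins 59 lay above and 2 below. The largest such member was mRpL45, at 9.63, 10.3 and 9.47 CPM in monogamous populations and 12.9, 11.9 and 11.6 in polygamous ones (0.31 ± 0.08, edgeR adjusted p 0.245). At 96 h, mRpL45 stood at 11.8, 11.6 and 11.6 CPM against 10.6, 12.4 and 11.7, and the regimes overlapped.

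The opposite order held for mRpL24, at 44.3, 41.0 and 41.4 CPM in monogamous populations at 48 h and 35.7, 35.9 and 34.7 in polygamous ones (-0.25 ± 0.07, edgeR adjusted p 0.245; DESeq2 adjusted p 0.0356). At 96 h it was at 33.6, 37.4 and 36.9 against 35.7, 38.2 and 34.5 CPM, with overlap. Its change with age in monogamous males was -0.23 ± 0.07 (edgeR adjusted p 0.200; DESeq2 adjusted p 0.0359, the call counted above). The high-numbered mRpL39 was at 10.1, 10.1 and 10.5 CPM in monogamous and 11.9, 12.4 and 12.1 in polygamous populations at 48 h (0.25 ± 0.08, edgeR adjusted p 0.253).

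At 96 h only 3 members did not overlap between regimes, 2 higher under polygamy and 1 lower, where 5.63% and 5.15% of all genes did. The gene mRpL27, whose bacterial counterpart touches the tRNA at the peptidyl transferase centre, was at 5.80, 6.60 and 6.58 CPM in monogamous and 8.51, 7.90 and 8.09 in polygamous populations (0.37 ± 0.10). The others were mRpL28 (0.26 ± 0.10) and mRpL51 (-0.17 ± 0.07). None of the 3 passed (edgeR adjusted p 1.00).

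The largest estimate between regimes belonged to mRpS16, whose bacterial counterpart binds small subunit rRNA, at -0.43 ± 0.17 at 48 h (edgeR adjusted p 0.272) and -0.31 ± 0.17 at 96 h (1.00). It was at 7.75, 10.1 and 9.63 CPM in monogamous and 6.32, 7.91 and 6.26 in polygamous populations at 48 h. At 96 h it was at 6.44, 8.36 and 10.2 against 6.98, 6.84 and 6.31. The regimes overlapped at either age, through monogamous population 1.

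A further test asked whether the change with age differed between regimes. Of 70 members, 0 passed (edgeR; 0% of all genes did), and 0 by DESeq2 (0% of all genes). At an unadjusted p under 0.05 (edgeR) there were 2, or 2.86%, near the 2.55% of all genes. These were mRpL45 (-0.32 ± 0.12, polygamous minus monogamous age change) and mRpL24 (0.26 ± 0.10), both at an edgeR adjusted p of 0.920. The widest interval reached 2.06-fold (mRpS35). This fit does not pair the ages of a population, so steady differences between populations count as spread in it. Within populations 1 to 3, the log2 age change of mRpS35 was 0.04, 0.11 and -0.10 under monogamy and 0.03, -0.12 and 0.07 under polygamy. The median over members was 0.02 beside 0.01 over all genes and -0.15 over cytosolic ribosomal proteins. Of the latter 81 of 87 were below 0, where 6252 of 13156 genes were. The age change in monogamous males, the regime difference at 48 h and this test share the monogamous 48 h libraries. They are therefore not separate results for any gene or list.

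Large and small subunit genes gave medians of opposite sign between regimes at 48 h and with age in monogamous males. The same held between regimes over population sums and for the difference of age changes, and all were small. Between regimes at 48 h the median was 0.08 for 46 large and -0.03 for 24 small subunit genes, with 33 and 7 above 0. With age in monogamous males it was 0.05 and -0.03, in polygamous males 0.03 and 0.08, and averaged over regimes 0.02 and 0.02. Between regimes it was 0.04 and 0.01 at 96 h and 0.06 and -0.03 over population sums. For the difference of age changes it was -0.02 and 0.11. Without monogamous population 1 the small subunit median was 0.01 between regimes at 48 h, with 12 of 24 above 0, and 0.06 with age in monogamous males, with 18 of 24 above 0. Without that population the signs stayed opposite over population sums (large 0.05, small -0.0079) and for the difference of age changes (-0.03 and 0.02). They became opposite between regimes at 96 h (0.02 and -0.0056). These are descriptions with no test of the lists.

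The largest difference between populations was that of a single gene in a single population. The high-numbered small subunit gene mRpS35 (FBgn0035374, 3L, 2780899 to 2782105, plus strand, BDGP6), whose human counterpart lies in the head of the subunit, was at 10.7 CPM at 48 h and 11.3 CPM at 96 h in polygamous population 3. In polygamous population 1 it was at 22.4 and 22.9 CPM, and in population 2 at 24.0 and 22.1. Monogamous populations 1 to 3 had 17.3, 21.5 and 18.7 CPM at 48 h and 17.7, 23.2 and 17.5 at 96 h. Both libraries of polygamous population 3 were therefore below all 10 others, and its 2 ages were alike. No exon of mRpS35 overlaps that of another gene.

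A comparison of populations within regimes, added after these values were seen, gave mRpS35 an edgeR adjusted p of 0.00357. It was the only member called by that F test, 1 of 70, where 5.08% of all genes were called. Population 3 was 2.06-fold below population 1 (log2 -1.04 ± 0.09, edgeR adjusted p 0.00259, in a pair where 2.08% of genes were called) and lower still against population 2 (-1.07 ± 0.09, adjusted p 0.00771, where 0.874% were). The difference between polygamous populations 1 and 2 did not pass (0.03 ± 0.09, 95% interval -0.18 to 0.24, edgeR adjusted p 1.00, where 0.973% were called). Without monogamous population 1 the adjusted p of mRpS35 was 1.95e-06. Leaving out the 48 h or the 96 h library of polygamous population 3 raised it to 0.0596 or 0.0502, with estimates still near -1, since 1 library then stood for that population.

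**Figure D5:**
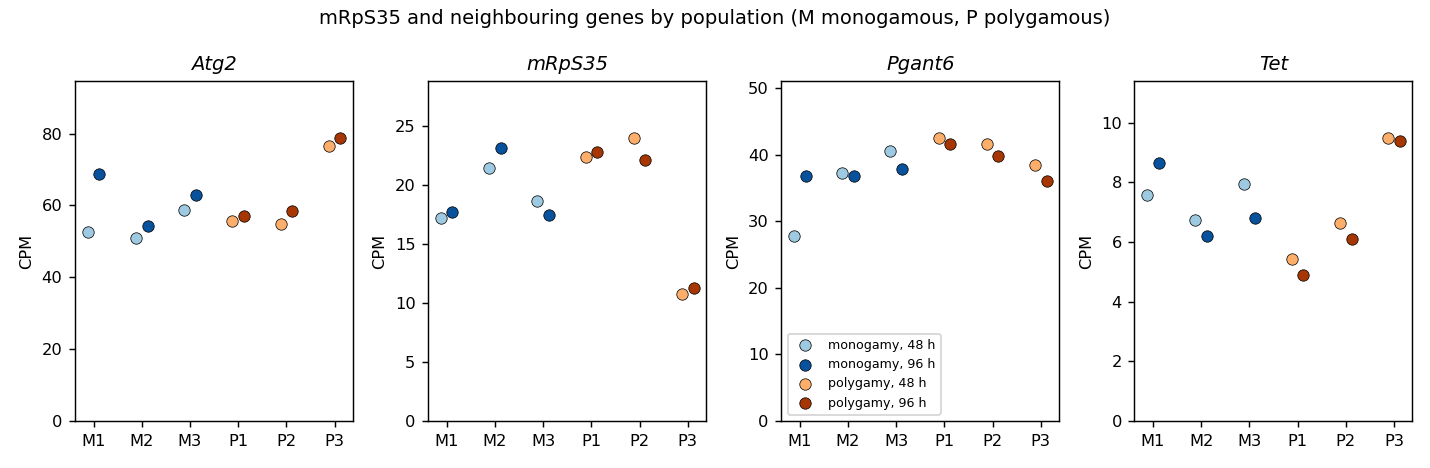
CPM of mRpS35, its neighbours Atg2 and Pgant6 and the nearby gene Tet in each population (M monogamous, P polygamous) at 48 h (light) and 96 h (dark). In polygamous population 3, mRpS35 was at 10.7 and 11.3 CPM against 17.3 to 24.0 elsewhere, while Atg2 and Tet were at their highest.

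The neighbours of mRpS35 were looked up within 10 kb. The autophagy gene Atg2 ends 222 bp upstream on the same strand, and stood at 76.6 and 78.9 CPM in polygamous population 3 against 51.0 to 68.6 in the other libraries (log2 0.47 against population 1, edgeR adjusted p 0.0441, and 0.46 against population 2, 0.0794; 0.0513 in the F test over populations). Tet, which encodes a dioxygenase of the TET family, lies on the opposite strand with its 3′ end 4102 bp downstream, and was at 9.49 and 9.38 CPM against 4.89 to 8.65 (0.87, edgeR adjusted p 0.0182, and 0.57, 0.127; 0.0342 over populations). Pgant6, a glycosyltransferase gene 150 bp downstream, did not pass over populations (edgeR adjusted p 0.447), nor did CG12093 (0.335), AhcyL1 (0.0813) or, in that test, Atg2. The direction for mRpS35 was thus opposite to that of Atg2 and Tet, and of AhcyL1 (0.16 against population 1 and 0.30 against population 2). Estimates for Pgant6 (-0.17 and -0.13) and CG12093 (-0.14 and -0.09) had the direction of mRpS35.

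Next to mRpS35 over populations came mRpL2, a protein of the peptidyl transferase region, with an edgeR adjusted p of 0.0528. It was at 14.2 and 14.2 CPM in monogamous population 2, 11.6 and 11.9 in population 1 and 9.47 and 10.6 in population 3 (48 and 96 h). In the polygamous populations it was at 10.7 and 10.9, 13.8 and 13.1, and 11.1 and 11.6 CPM. Monogamous population 3 was below population 2 by -0.50 ± 0.09 (edgeR adjusted p 0.0441, where 1.68% of genes were called). The only other call among the 6 pairs was mRpS18B, lower in monogamous population 3 than in population 1 (-0.54 ± 0.09, edgeR adjusted p 0.0245, where 4.29% were called). Between monogamous populations 2 and 1 no member passed (edgeR), where 3.18% of all genes did.

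Without monogamous population 1, 6 of 70 members were called over populations, where 21.5% of all genes were: mRpS35, mRpL2, mRpS22, mRpL28, mRpL21 and mRpL40 (edgeR adjusted p 1.95e-06 to 0.0469). Of 87 cytosolic ribosomal proteins 33 were called in that fit and 0 with all libraries. The members' share stayed under that of all genes in either fit.

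Other genes of mitochondrial translation had a wider range of levels than the mitoribosomal proteins. The tRNA synthetase gene TrpRS-m stood at 455 CPM per kb, CysRS-m at 169 and the elongation factor genes mEFTs at 318 and mEFTu2 at 123, against 47.0 for the highest member. In contrast mEFTu1 was at 20.1, and 7 of the 10 tested factors lay under 11.3 CPM per kb, the median of the members. Of 10 translation factors and 14 synthetases tested, 0 passed with age or regime (edgeR). With age averaged over regimes, 1.57% of all genes were called (edgeR). Of 87 nuclear oxidative phosphorylation genes, 2 fell in that comparison, ND-MLRQ (-0.33 ± 0.06, edgeR adjusted p 0.0322) and ATPsynC (-0.27 ± 0.05, 0.0366). Below 0 were 81 of the 87, where 27 of 70 members and 6263 of 13156 genes were. Of 6 regulators of ribosome production and growth, only Myc passed with age averaged over regimes (0.76 ± 0.16, edgeR adjusted p 0.0450). It stood at 12.2 to 23.2 CPM at 48 h and at 25.5 to 40.9 at 96 h, both extremes in monogamous population 1. Without that population the change was 0.59 ± 0.14 (edgeR adjusted p 0.0414). Any tie between Myc and the ribosomal protein genes was not tested.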

How the data were processed

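Each of the 12 files deposited by the authors held raw counts of reads by gene, made from stranded total RNA libraries per the labels' protocols. Per the submitters' processing notes, Trimmomatic 0.33, TopHat2 2.1.0, HTSeq 0.6.1 and build BDGP6 were used. The strand setting of HTSeq, its rule for partly shared reads and the annotation release are not given in the sources used here. This makes counts of overlapping genes uncertain. The 5 summary lines of each table (15.1% to 17.2% of reads) stayed out of library sizes and tests. Symbols, positions and exon lengths came from Ensembl's BDGP6.54 annotation, which held 17253 of the 17559 identifiers.

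The test was edgeR's quasi-likelihood F test (version 4.0.16 under R 4.3.3, with robust estimation, TMM factors and filterByExpr), with 1 coefficient per group, 1 dispersion fit over 12 libraries and Benjamini-Hochberg adjustment over all 13156 genes tested. A gene was called at an adjusted p under 0.05. Regimes were also compared over population sums (13512 genes), and populations within regimes with age by regime as covariates, the latter added after values were seen. CPM are edgeR values, errors of log2 changes are standard errors, and intervals are 95% intervals of the fit.

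The members and gene lists were chosen with earlier results of these data known. Members named are those called, the 5 highest and 5 lowest per kilobase, the 3 largest changes without overlap in each comparison, lettered paralogues and a small panel. Others (mRpS16, mRpL2, mRpS35 with its neighbours, those extreme in 1 library, those of widest span and the genes of mitochondrial translation) were singled out after their values were seen. The population served as a block: deviations from group means correlated at 0.390 to 0.570 over genes between the 48 and 96 h libraries of the same population, and each 48 h library was closest to its own population. Replicates differed by far more than sampling noise (chi-square of 11.6 to 190.1 per degree of freedom). Other size factors, no filter, DESeq2 1.42.0, the replicate block and left-out libraries were tried. The fit was also run on simulated data. These were drawn independently for each library, so they hold no tie between the ages of a population. No sequence is shown.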

Additional observations from a re-analysis of the deposited data

Results flagged for a closer look

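The gene mRpL36 was flagged after its values were seen, because its direction with age was uniform within each regime and opposite between them. The share of all genes with that order was not computed, so it is not known whether the order is unusual. In monogamous populations 1 to 3 it went from 10.6, 9.46 and 8.72 CPM at 48 h to 9.09, 8.56 and 8.41 at 96 h, lower in 3 of 3. In polygamous populations it went from 7.98, 8.17 and 8.40 to 8.89, 9.07 and 8.68 CPM, higher in 3 of 3. The difference of the age changes, polygamous minus monogamous, was 0.26 ± 0.12 on the log2 scale and did not pass (edgeR adjusted p 0.920). Bacterial L36 is a small zinc-binding protein of the large subunit.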

How the results depend on the processing

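The count of members called stayed at 0 of 70 in the age, regime and interaction comparisons under most other settings. These were other size factors (except library totals), no filter on low counts, and leaving out monogamous population 1. With the replicate block the count was 0 of 70 for age and interaction, and the regime comparisons were not run with that block. The exceptions were 1 call by DESeq2 with age in monogamous males and 1 at 48 h between regimes (both mRpL24), 2 with library totals with age averaged over regimes (mRpL3, 0.31, adjusted p 0.0350; mRpL19, 0.30, 0.0461; 5.03% of all genes were called), and, with the replicate block and without monogamous population 1, 1 with age in polygamous males and 5 averaged over regimes. The block alone changed no call of a member. Leaving out each library in turn, or each population in turn for the population sums, gave 0 to 0 calls in these 7 comparisons.

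Over populations, library totals gave 2 calls (mRpS35 and mRpL2; 5.15% of all genes were called) and the fit without monogamous population 1 gave 6. Leaving out each library gave 0 to 18 calls. These were 5 without the 48 h library of monogamous population 1 (23.4% of all genes called) and 18 without its 96 h library (53.3%). For mRpS35 the log2 difference of polygamous population 3 ranged from -1.10 to -0.98 against population 1 and from -1.16 to -0.98 against population 2. It lost its call where a library of the pair was left out, which leaves 1 library for a population. The cause of the other differences was not tested.

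With size factors from testis genes the median of all genes moved to 0.12 with age in monogamous males, 0.15 between regimes at 48 h and 0.12 over sums, and the members' median to 0.14, 0.17 and 0.14. The members' interaction median was -0.07 there, beside -0.08 over all genes. Leaving out 1 library gave member medians from -0.0084 to 0.06 with age in monogamous males, from -0.0021 to 0.04 between regimes at 48 h and from -0.02 to 0.05 for the interaction, so their sign is not settled. The 64 counts of the lowest member limit precision most for low members such as mRpL33.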
